A study of Homo sapiens with 6 samples.

Results

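Protein phosphatase 6 is a serine/threonine phosphatase of the PP2A-like group. It works as a complex of a catalytic subunit (PPP6C), a regulatory subunit with a SAPS domain (PPP6R1, PPP6R2 or PPP6R3) and an ankyrin-repeat subunit (ANKRD28, ANKRD44 or ANKRD52). It is known for removing phosphates from the mitotic kinase Aurora A bound to TPX2, and for roles in DNA repair through DNA-dependent protein kinase and in NF-κB signalling. Circular RNAs (circRNAs) of these genes are closed loops in which the end of an exon is joined back to the start of the same or an upstream exon. They were counted in BEAS-2B, a virus-immortalised human airway epithelial line derived from bronchus, from reads spanning that back-splice.

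All circRNAs with a single named host gene among these subunits were taken, 23 of the 9857 circRNAs listed. They came from 5 genes, with 1 circRNA of PPP6C, 1 of PPP6R1, 2 of PPP6R2, 15 of PPP6R3 and 4 of ANKRD28, while 0 were listed for ANKRD44 and 0 for ANKRD52. PPP6R2 was picked because its circRNA reads were lower with cadmium in these same libraries, so its difference between the groups is described below without a test. The other subunits were picked by name.

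The T-BEAS-2B cells were kept in 2.0 µM cadmium for 20 weeks (3 libraries), and the C-BEAS-2B cells were kept at 0.0 µM for the same time (3 libraries). Both were subcultured every 3 days. The RNA of all 6 libraries was depleted of ribosomal RNA and treated with RNase R, which digests linear RNA, so the reads compare circRNAs with each other and give no level of the linear messenger RNA or the protein. Whether the 3 libraries of a group were grown apart is not in the labels. The spread behind each p-value is that of the 3 libraries and may be technical.

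Depth ran from 133185 to 160248 junction reads in the cadmium libraries and from 137919 to 225769 in the control libraries. A circRNA had a median of 7 reads in a library, and most values below rest on few reads. No molecular identifiers are named, so reads may repeat molecules, and limits from a count of 0 cover counting error only. No circRNA was listed for any of 10 bronchial epithelial marker genes, nor for any of 10 markers of immune, endothelial and fibroblast cells, so the labelled cell type could not be checked here.

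The back-splice junctions of the members that the results turn on are shown in the sense of the host gene, 5′ to 3′. The last 15 bases of the donor exon are in lower case, and the capitals mark the first 15 bases of the acceptor exon to which they are joined. The bases are those of GENCODE 29 transcripts (GRCh38), not reads of these cells.
hsa_circ_0001258 of PPP6R2 (chr22:50372020-50394135, plus strand, exons 2 to 3 of 23): gaaggtccgcttcaaGTAAAGAGATTATAA
hsa_circ_0023224 of PPP6R3 (chr11:68519501-68537891, plus strand, exons 2 to 3 of 25): aaagatcagatacaaGAGAGCTTGTTTCAT
hsa_circ_0004449 of PPP6R3 (chr11:68505145-68537891, plus strand, exons 2 to 4 of 23): aaagatcagatacaaATAAGAAAACAAGCT
hsa_circ_0005746 of PPP6R1 (chr19:55245120-55245678, minus strand, exons 3 to 5 of 24): tcgaaggatgagaatGTACCCCAGTGTGGC
hsa_circ_0088549 of PPP6C (chr9:125153533-125153985, minus strand, exons 5 to 6 of 7): aaggtcacaaatgagATGAGTGCCAAACCA
hsa_circ_0064516 of ANKRD28 (chr3:15735410-15751820, minus strand, exons 4 to 6 of 28): gggcagcatatatggGAGCTAGAGTTAATG

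The PPP6R2 circRNA and both of these PPP6R3 circRNAs have the same architecture. Each joins the exon with the annotated start codon back to an untranslated exon upstream of it. Members were taken by host gene without regard to this, but the comparison was chosen after seeing the data. The other PPP6R3 circRNAs, among them the most abundant, do not have this architecture. The start-codon exon holds 227 coding bases in PPP6R2 and 227 in PPP6R3, identical at 150 of them (66.1%). In PPP6R1 the start-codon exon, number 2, also holds 227 coding bases, identical to those of PPP6R2 at 150 positions and to those of PPP6R3 at 134. It lies just outside the PPP6R1 circRNA, which begins at exon 3. The PPP6R2 circRNA hsa_circ_0001258 and the PPP6R3 circRNAs hsa_circ_0004449 and hsa_circ_0023224 are the 3 members whose listed exons hold the start codon of their transcript. A further PPP6R3 circRNA, novel_circ_0003141, spans the same exon, but its listed exons, 404 bases in all, are numbers 2, 4 and 6 and leave it out.

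The spliced length listed for the members ran from 257 to 628 bases (median 404, against 380 over all circRNAs). For hsa_circ_0001258 the listed length, 374 bases, equals exons 2 and 3 of transcript PPP6R2-204, whereas the exons listed beside it add a further exon between these and sum to 500 bases. Such a mismatch was found for 8 of the 23 members, and in each of the 8 the listed length equals the exons of the GENCODE transcript. Which inner exons the circles hold was therefore not settled by these files, while the junction itself was. The introns beside the PPP6R2 circle measure 28469 bases upstream and 12553 bases downstream.

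Reads of PPP6C, the catalytic subunit, were near the limit of counting. Its single circRNA hsa_circ_0088549 had 3, 5 and 3 reads in cadmium replicates 1 to 3, against 6, 0 and 0 reads in control replicates 1 to 3. It was too rare to be tested. A true count of 0 allows up to 3 reads in a library, which is 21.8 reads per 1000000 junction reads of the library (CPM) in control replicate 2. As the counts hold 0 values of 1, a listed 0 may stand for 1 read, and the limit would then be higher.

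PPP6R2 encodes a SAPS-domain regulatory subunit, and its circRNA hsa_circ_0001258 is the most abundant member, ranked 545 of 9857 by mean CPM. It had 31, 28 and 20 junction reads in cadmium replicates 1 to 3, against 108, 45 and 89 reads in control replicates 1 to 3. Scaled to library size these are 229, 203 and 128 CPM with cadmium, against 486, 326 and 535 CPM in controls. Each cadmium library lay below each control library, and control replicate 2 was the lowest control. The means were 187 ± 52.7 CPM with cadmium and 449 ± 109 CPM in controls (SD, n = 3 each), and the log2 fold change fitted by edgeR was -1.28 (SE 0.27). In the authors' deposited table its log2 fold change is -1.12 with an adjusted p of 0.0999, and it carries the authors' mark of significance. Those values come from the same libraries that chose PPP6R2, so they are no separate support. The share of all circRNAs that carry this mark was not counted.

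The second PPP6R2 circRNA, novel_circ_0022135, starts at the same base of exon 2 and ends earlier, at 50389111 on chromosome 22. It had 0, 0 and 2 reads with cadmium, against 3, 3 and 2 reads in controls, so the gene's value is nearly all that of hsa_circ_0001258. The leading circRNA took 100%, 100% and 90.9% of PPP6R2 reads in cadmium replicates 1 to 3, against 97.3%, 93.8% and 97.8% in control replicates 1 to 3, and the groups overlapped.

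Summed over both circRNAs, PPP6R2 stood at 236, 211 and 141 CPM with cadmium, against 512, 352 and 571 CPM in controls. The means were 196 ± 49.1 CPM with cadmium and 478 ± 113 CPM in controls (SD, n = 3 each), a log2 fold change of -1.31 (SE 0.25), or 2.47-fold lower. The groups did not overlap, which was so for 19.3% of the 3008 host genes tested, and 0.233% of them passed an edgeR adjusted p under 0.05. As PPP6R2 was chosen on this contrast, these shares are printed for scale only. Without control replicates 1 and 3, whose libraries hold more junction reads relative to other reads than the rest, the log2 fold change of PPP6R2 was -0.87.

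**Figure D1:**
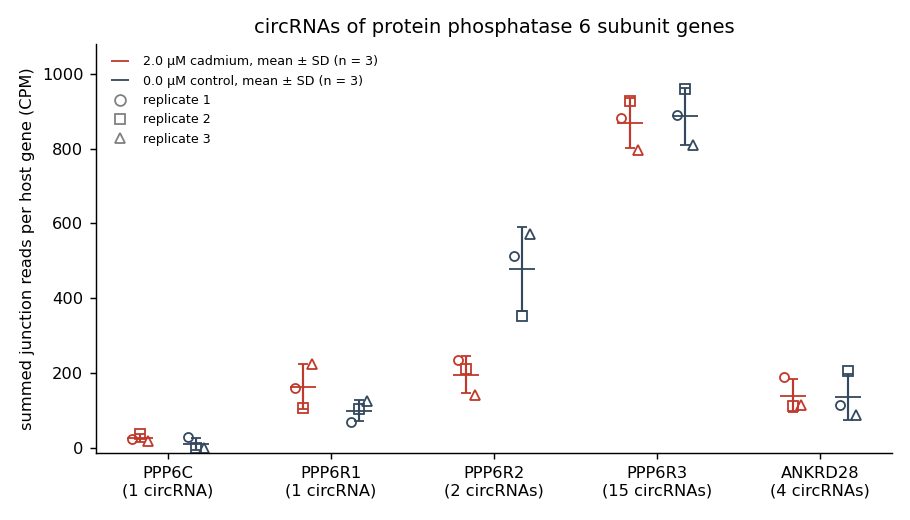
Junction reads summed per host gene in CPM (y axis) for the 5 phosphatase 6 subunit genes (x axis), with cadmium libraries left of control libraries. Symbols are single libraries and bars the mean ± SD (n = 3 each). PPP6R2 averages 196 CPM with cadmium and 478 CPM in controls, and PPP6R3, PPP6R1, PPP6C and ANKRD28 overlap between the groups.

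PPP6R3, the paralogue with the most circRNAs, stood at about the same level in both groups. Its summed level was 882, 927 and 795 CPM with cadmium, against 890, 960 and 809 CPM in controls. The means were 868 ± 66.9 CPM with cadmium and 886 ± 75.6 CPM in controls (SD, n = 3 each), with a log2 fold change of -0.03 (SE 0.14, edgeR adjusted p = 0.948). The sign of this small value turned when cadmium replicate 3 or control replicate 2 was left out.

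For each PPP6R3 read there were 0.267, 0.228 and 0.177 PPP6R2 reads in cadmium replicates 1 to 3, against 0.575, 0.366 and 0.705 in control replicates 1 to 3. Scaling between libraries plays no part in this ratio. PPP6R2 made up 15.8%, 15.1% and 10.9% of all member reads with cadmium, against 31.7%, 21.7% and 35.8% in controls. The ratio and this share both contain the PPP6R2 reads that chose the gene, so they are no separate measure of its difference.

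PPP6R1, the remaining SAPS-domain subunit, has a single circRNA, hsa_circ_0005746, whose values ran the other way. It had 21, 14 and 35 reads with cadmium, against 15, 14 and 20 reads in controls. In CPM over host genes this is 160, 106 and 225 with cadmium, against 69.2, 103 and 125 in controls, and the groups overlapped. The log2 fold change of PPP6R1 was 0.76 (SE 0.36), and it did not pass the test (edgeR adjusted p = 0.417, unadjusted p = 0.0542).

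ANKRD28, an ankyrin-repeat subunit, had summed levels of 190, 113 and 115 CPM with cadmium, against 115, 205 and 87.8 CPM in controls. With a log2 fold change of 0.06 (SE 0.37), ANKRD28 did not pass (edgeR adjusted p = 0.961), and the libraries of the groups overlapped. The sign turned to -0.58 without control replicates 1 and 3, and it also turned without cadmium replicate 1, control replicate 1 or control replicate 3. The most abundant of its 4 circRNAs, hsa_circ_0064516, had 7, 8 and 16 reads with cadmium, against 12, 16 and 5 reads in controls. The low circRNAs hsa_circ_0003463 and hsa_circ_0002658 share the end of exon 21 and hsa_circ_0007728 shares the end of exon 6 with hsa_circ_0064516. None of these 3 had more than 8 reads in a library.

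Of the 23 circRNAs, 15 had enough reads to be tested one by one, 1 from PPP6R2 and 14 from the other subunits. Of these 14, 7 were higher and 7 lower with cadmium, with a median log2 fold change of 0.03 against 0.01 over all 6182 circRNAs tested. None of the 14 passed (edgeR, 0 at an adjusted and 0 at an unadjusted p under 0.05), where 0.0809% of all tested circRNAs passed at the adjusted and 8.2% at the unadjusted threshold. Limma and DESeq2 also called 0 of the 14, and DESeq2 gave no adjusted p for 12 of them. The groups did not overlap for 1 of the 14, which was lower with cadmium. Among all tested circRNAs 7.78% lay apart with lower and 7.52% with higher values, 15.3% in all.

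**Figure D2:**
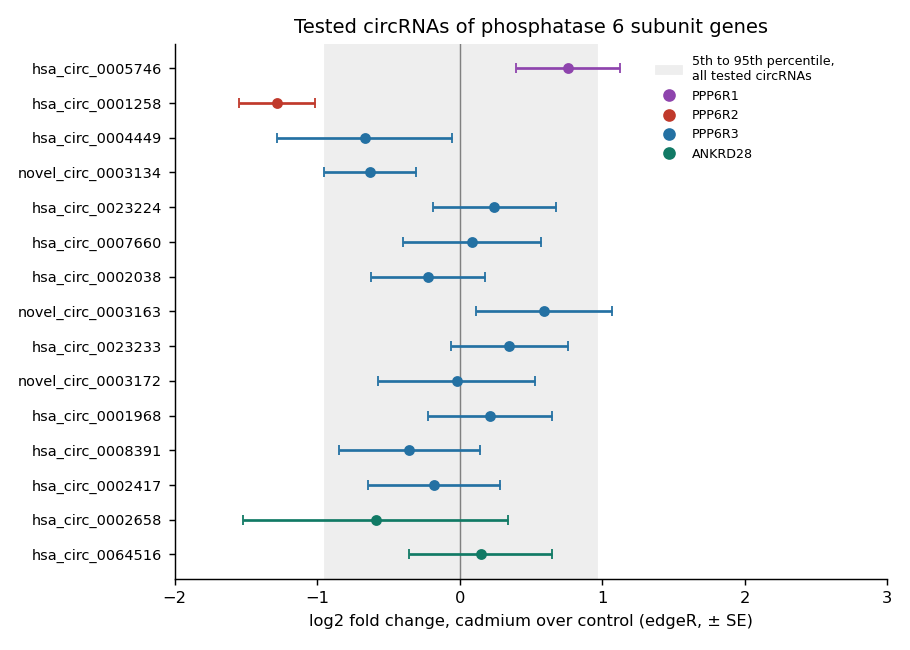
Log2 fold change of cadmium over control (x axis, ± SE from edgeR) for the 15 tested circRNAs, coloured by host gene. The grey band spans the 5th to 95th percentile of all 6182 tested circRNAs, -0.95 to 0.96. The PPP6R2 circRNA, chosen for its low value, lies at -1.28, and the 14 others lie between -0.67 and 0.76.

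The member without overlap was novel_circ_0003134, the most abundant PPP6R3 circRNA (chromosome 11, 68515028 to 68519651). Both of its exons are untranslated and lie just before the start-codon exon. It had 16, 16 and 15 reads with cadmium, against 30, 33 and 24 reads in controls. In CPM this is 118, 116 and 95.7 with cadmium, against 135, 239 and 144 in controls, so the nearest libraries of the groups stood at 118 and 135. The log2 fold change was -0.63 (SE 0.32, edgeR adjusted p = 0.646).

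The pair of PPP6R3 circRNAs built around the start codon like that of PPP6R2 gave no sign that held for both. For hsa_circ_0004449 the reads were 8, 3 and 2 with cadmium, against 12, 6 and 8 in controls (-0.67 on the log2 scale, SE 0.61, edgeR adjusted p = 0.820). For hsa_circ_0023224 they were 13, 9 and 10 with cadmium, against 15, 12 and 6 in controls (log2 fold change 0.24, SE 0.43, edgeR adjusted p = 0.912). Without control replicates 1 and 3 the value of hsa_circ_0023224 was -0.23, and it was also below 0 without cadmium replicate 1 or control replicate 3. For hsa_circ_0004449 it was -1.52 without cadmium replicate 1. Both share the donor at 68537891, the end of the start-codon exon. This donor had 21, 12 and 12 reads in all with cadmium, against 27, 18 and 14 reads in controls.

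The other PPP6R3 circRNAs come from coding exons, apart from novel_circ_0003141, which runs from exon 2 to exon 6. They reuse a few splice sites, so their junctions are not independent. The donor at the end of exon 14 (68576043) closes 3 circles, that of exon 19 (68596218) a further 3 and that of exon 22 (68603492) another 3. Reads at the exon 14 donor were 25, 20 and 20 with cadmium, against 40, 22 and 27 in controls. At the exon 19 donor they were 15, 26 and 35 with cadmium, against 30, 21 and 11 in controls. At the exon 22 donor they were 14, 23 and 22 with cadmium, against 29, 22 and 27 in controls. At each of these donors the groups overlapped.

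**Figure D3:**
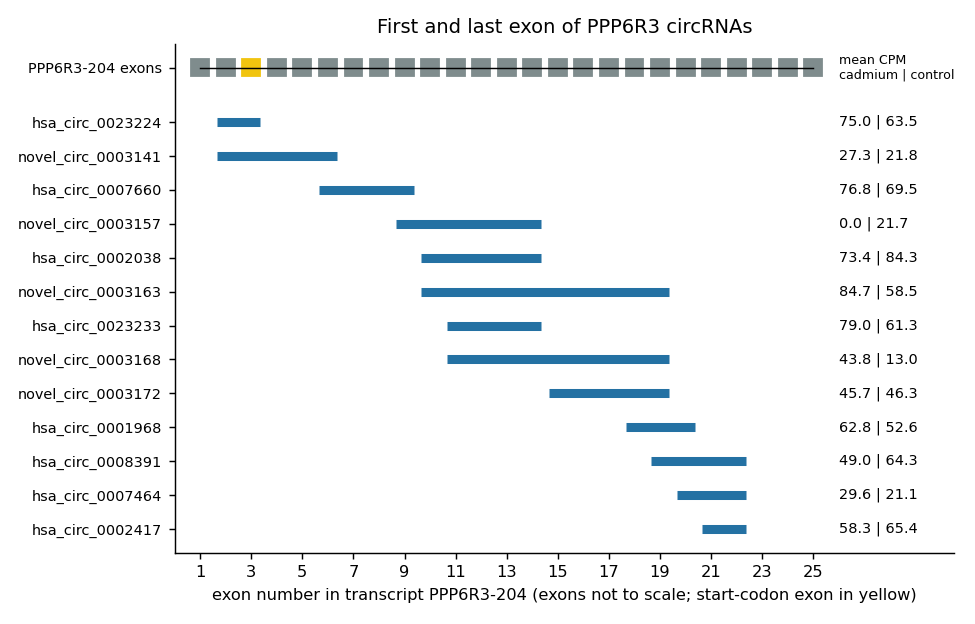
The first and last exon (x axis, exon number in transcript PPP6R3-204, not to scale) of the 13 of 15 PPP6R3 circRNAs whose ends lie on this transcript, 1 per row, with mean CPM for cadmium and then control at the right. The start-codon exon is yellow. Donors of exons 14, 19 and 22 each end 3 circles, and mean levels run from 0.0 to 84.7 CPM with cadmium and from 13.0 to 84.3 CPM in controls.

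Of the PPP6R3 circRNAs, 11 of 15 were tested. Their log2 fold changes ran from -0.67 to 0.59, 5 higher and 6 lower. Among the 4 too rare for the test, novel_circ_0003157 (exons 9 to 14) had 0, 0 and 0 reads with cadmium, against 4, 4 and 3 reads in controls. A further one, novel_circ_0003168 (exons 11 to 19), had 4, 7 and 8 reads with cadmium, against 6, 0 and 2 reads in controls. A circRNA entered the table only if every library of a group held reads of it, which by itself favours such contrasts among rare circRNAs. The authors' deposited table marks novel_circ_0003157 as significant, with an unadjusted p of 0.0357 and no adjusted p.

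The files also give, for each locus, the reads that do not cross the junction. These may come from linear RNA that escaped RNase R or from the body of the circle, and the way they were counted is not given in the labels. At the locus of hsa_circ_0001258 there were 119, 104 and 115 such reads with cadmium, against 152, 138 and 81 reads in controls. Scaled to 1000000 non-junction reads over 6090 loci this was 214, 198 and 174 with cadmium, against 322, 231 and 261 in controls. Each cadmium library lay below each control (195 ± 20.3 with cadmium against 271 ± 46.8 without it, SD, n = 3 each). The unscaled reads overlapped between the groups, so this order rests on the scaling. As such reads can come from the circle itself, they are no separate measure of the gene, and no p is given for PPP6R2. The other genes were compared by two-sided exact permutation, where 0.1 is the smallest p that 3 against 3 can give. Their p-values were adjusted over 4 genes, PPP6R2 included, and including this chosen gene made the adjusted value of PPP6R1 smaller.

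At the other loci the non-junction reads differed in direction. PPP6R1 had 103, 103 and 124 on that scale with cadmium, against 99.7, 80.2 and 90.1 in controls, and each cadmium library lay above each control (exact permutation p = 0.1, adjusted 0.2). How many of all loci lie apart on this scale was not counted, so the separations at PPP6R1 and PPP6R2 have no background rate beside them. Over 12 PPP6R3 loci, which overlap and share reads, they averaged 1727 ± 116 with cadmium against 1684 ± 249 without it (SD, n = 3 each), and the exact permutation p was 0.8 (adjusted 0.9). For the ANKRD28 locus of hsa_circ_0064516 they averaged 58.0 ± 15.5 with cadmium against 59.4 ± 18.4 without it (SD, n = 3 each), and the exact permutation p was 0.9 (adjusted 0.9).

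A weighted junction share was also formed, the doubled junction reads over the sum of these and the non-junction reads. For PPP6R2 it was 34.3%, 35% and 25.8% in cadmium replicates 1 to 3, against 58.7%, 39.5% and 68.7% in control replicates 1 to 3. Over all 6090 loci it was 30.02%, 31.8% and 30.4% with cadmium, against 46.1%, 29.2% and 48.9% in controls. Control replicates 1 and 3, where the share of all loci is high, are also those with the most PPP6R2 junction reads, and the part of this library difference in the result was not tested. Taken relative to all loci of the same library, the PPP6R2 share was on average 13.2 percentage points lower with cadmium (a difference of -13.2), against -23.9 points for the share itself. The share contains the junction reads that chose the gene and is given with no test. At the ANKRD28 locus the share was 35%, 37.2% and 39.0% with cadmium, against 49.0%, 40% and 41.7% in controls. As such this locus too lay lower, while PPP6R1 and PPP6R3 overlapped. The groups were not compared for ANKRD28 relative to all loci. Its share stood above that of all loci in each cadmium library and in control replicates 1 and 2, but below it in control replicate 3. How many single loci lie apart in this share was not counted.

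**Figure D4:**
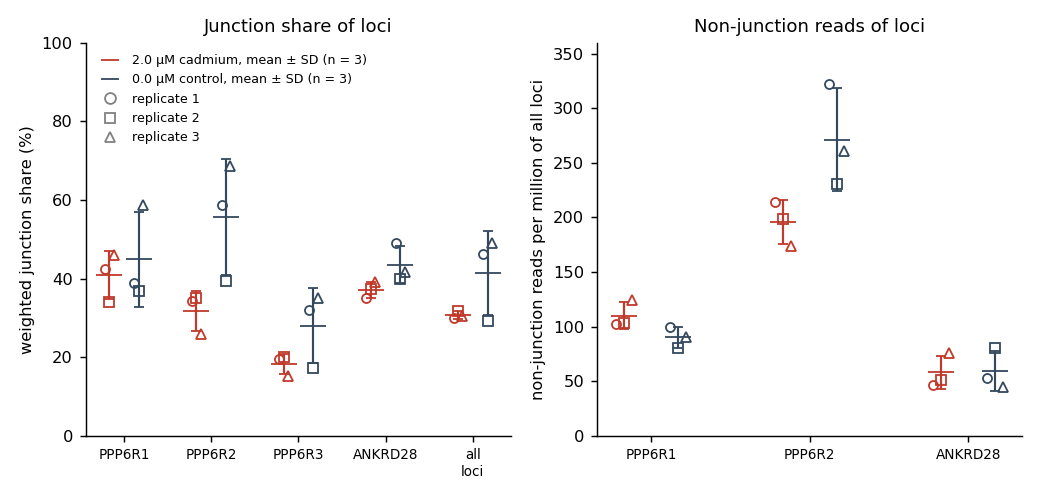
Left, the weighted junction share in percent at loci of 4 subunit genes and over all loci. Right, non-junction reads per 1000000 of those of all loci for PPP6R1, PPP6R2 and ANKRD28. Cadmium libraries stand left of controls, symbols are libraries and bars the mean ± SD (n = 3 each). The PPP6R2 share averages 31.7% with cadmium and 55.6% in controls, and control replicate 2 is the lowest control over all loci at 29.2%.

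Among 3007 other host genes, the 5 whose log2 CPM followed PPP6R2 most closely over the 6 libraries were MPZL1, WDFY3, GNB1, STK39 and MTMR3. MPZL1 encodes a cell surface glycoprotein, WDFY3 a scaffold of selective autophagy, GNB1 a G protein beta subunit, STK39 a kinase acting on ion cotransporters and MTMR3 a phosphoinositide phosphatase. Pearson's r was 0.999 for MPZL1 and 0.991, 0.986, 0.983 and 0.981 for the others in that order. This is a description over 6 libraries of 2 groups, with all genes read from the same libraries. MPZL1 had 304, 286 and 237 CPM with cadmium, against 447, 359 and 476 CPM in controls. Its log2 fold change was -0.64, and those of the other 4 ran from -0.34 for STK39 to -0.70 for WDFY3, all smaller in size than that of PPP6R2. As these 5 were picked for following PPP6R2, and PPP6R2 for its fall, their lower values with cadmium follow from the choice. Of the other subunits, PPP6R3 had r = 0.105, ANKRD28 r = -0.219 and PPP6R1 r = -0.716 with PPP6R2.

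Related phosphatases were described by lists of host genes. Over the 33 tested hosts of 5 lists none passed (edgeR, 0 at an adjusted p under 0.05, with limma and DESeq2 also 0), and DESeq2 gave no adjusted p for 31. At an unadjusted p under 0.05 edgeR gave 4 of 33, limma 5 and DESeq2 3, against 12.5% of all 3008 hosts by edgeR. The shares of all hosts by limma and DESeq2 were not counted, so their counts have no background beside them. The groups lay apart with lower values for 5 of the 33 and with higher values for 3, against 10% and 9.28% of all hosts. The median log2 fold change over all tested hosts was 0.00.

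The PP2A family, the nearest relatives of phosphatase 6, had 8 tested hosts, 4 higher and 4 lower with a median log2 fold change of -0.01. PPP2R5A, a B56 regulatory subunit, had the smallest p of these, at 137, 60.3 and 122 CPM with cadmium, against 184, 139 and 188 CPM in controls (log2 fold change -0.68, edgeR adjusted p = 0.434). STRN, the scaffold striatin, had -0.43 and PPP2R3B, a B″ regulatory subunit, 0.25 (edgeR adjusted p = 0.622 and 0.626).

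Phosphatase 4, the other close relative, had 2 tested hosts. Its regulatory subunit gene PPP4R1 gave 12 circRNAs, which summed to 1377, 1357 and 1123 CPM with cadmium, against 1803, 1722 and 1618 CPM in controls. Each cadmium library lay below each control, and the log2 fold change was -0.42 (SE 0.13, edgeR adjusted p = 0.212). PPP4R3A, which encodes a further regulatory subunit, had 0.11 (edgeR adjusted p = 0.928), a sign that turned without cadmium replicate 2, control replicate 2 or control replicate 3.

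In the list of PP1, PP2B and PP5 genes 5 of 10 tested hosts were higher and 5 lower, with a median log2 fold change of 0.00. PPP1R12A, the myosin-targeting subunit of PP1, had 68.5, 45.2 and 57.7 CPM with cadmium, against 161, 183 and 113 CPM in controls, without overlap (log2 fold change -1.40, SE 0.36, edgeR adjusted p = 0.186). PPP1CB, the catalytic subunit that pairs with it in myosin phosphatase, had 98.9, 67.8 and 77.0 CPM with cadmium, against 148, 110 and 219 CPM in controls (-0.97 on the log2 scale, SE 0.36, edgeR adjusted p = 0.279). Paralogues of PPP1R12A gave values on both sides of 0, -1.08 for PPP1R12B and 0.73 for PPP1R12C, with overlapping groups (edgeR adjusted p = 0.551 and 0.737). PPP1R21 had 0.54 (edgeR adjusted p = 0.463).

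Of proteins that assemble or methylate PP2A-like phosphatases, 2 hosts were tested. The methyltransferase gene LCMT1 stood 0.78 higher on the log2 scale (edgeR adjusted p = 0.453), and the methylesterase gene PPME1 had -0.06 (edgeR adjusted p = 0.898).

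Among substrates and partners of phosphatase 6, 11 hosts were tested, 4 higher and 7 lower with a median log2 fold change of -0.17. LATS1, a kinase of the Hippo pathway, had 137, 106 and 103 CPM with cadmium, against 267, 220 and 176 CPM in controls (log2 fold change -0.96, SE 0.29, edgeR adjusted p = 0.204). PRKDC, which encodes the catalytic subunit of DNA-dependent protein kinase, had 426, 558 and 430 CPM with cadmium, against 424, 322 and 301 CPM in controls (log2 fold change 0.41, SE 0.20, edgeR adjusted p = 0.433). AURKA, the gene of Aurora A, gave abundant circRNAs at 1940 ± 217 CPM with cadmium and 2182 ± 152 CPM in controls (SD, n = 3 each). At -0.17 on the log2 scale it did not pass either (edgeR adjusted p = 0.609).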

How the data were processed

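Total RNA of 6 libraries was analysed from back-splice junction read counts, deposited by the authors as whole numbers per circRNA and library. The table holds 0 values of 1, and every circRNA has reads in each library of cadmium, of control or of both. The deposited TPM values are those counts per 1000000 of the library total, with no length term, per the file headers and values, and served in 1 alternative. The log2 fold changes and p-values of the authors' deposited table are quoted only where named. The submitters' processing notes name hg19, DESeq 1.10.1, Bowtie and Bowtie2 2.2.8 without their roles. Which program called the circRNAs is not stated there. The deposited positions follow GRCh38 instead, since 98.0% of exonic starts and 98.1% of ends lie on GENCODE 29 exon bounds.

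Members were taken by host gene symbol. The members and lists were chosen with earlier results of these data known. All 9857 circRNAs, and counts summed per single host gene identifier, were fitted with the edgeR 4.0.16 quasi-likelihood test (R 4.3.3, TMM, robust, filterByExpr with minimum count 5 and minimum total 15), which left 6182 circRNAs and 3008 hosts. P-values were Benjamini-Hochberg adjusted over all of them, with a threshold of 0.05. CPM use TMM library sizes, of all circRNAs for single circRNAs and of circRNAs with 1 host for gene sums. SE was taken as |log2 fold change| divided by the root of F. Single values were compared by exact permutation in scipy 1.17.1. Within a group, libraries varied beyond counting error (chi-square over its degrees of freedom, 1.59 to 2.49).

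Named genes were all subunit hosts, the 5 hosts most correlated with PPP6R2 in log2 CPM (prior count 2), and up to 3 hosts per list with the smallest p. PPP1R12B and PPP1R12C were named after their values were seen. Tests planned for the PPP6R2 junction share and for its leading circRNA are not printed, because both contain the reads that chose the gene. Tests of non-junction reads, groupings by splice site and the comparison of start-codon exons were chosen after seeing the data. Each fit was repeated with RLE size factors, with totals only, without the filter, with a stricter filter, by DESeq2 1.42.0, by limma 3.58.1 on log2(TPM + 1), blocked by replicate number and without each library. Leaving out control replicates 1 and 3, and the share relative to all loci, were added after seeing the data.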

Additional observations from a re-analysis of the deposited data

How the results depend on the processing

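The PPP6R2 log2 fold change stayed negative in all settings tried, from -1.47 to -1.10 with 1 library left out. Without control replicates 1 and 3 it was -0.87 (-0.82 for hsa_circ_0001258), in a fit that assumes the lone control varies like the cadmium libraries. As PPP6R2 was chosen for its fall and its groups did not overlap, leaving out libraries could not turn this sign. The kept sign is therefore no support for the fall. Counts of calls over all features varied with the setting. Host calls were 4 by limma, 3 without control replicates 1 and 3 and 3 to 13 with 1 library left out, against 7, and circRNA calls were 3 without control replicates 1 and 3 and 0 to 13 with 1 library left out, against 5. Members other than PPP6R2 had 0 calls in every setting that kept more than 1 library per group. The same held for the list genes named for their small p. PPP1R12B and PPP1R12C were not followed through these settings. The whole lists had 0 calls by edgeR, DESeq2 and limma, the tools they were run with. The leading circRNA's share of PPP6R2 differed by 0.687 percentage points, by 0.0 among circRNAs that pass the filter, and by -0.829 to 3.72 with 1 library left out. The weighted share of the locus differed by -32.0 to -17.4 points with 1 library left out.

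Several values changed sign, among them those of novel_circ_0003163 and hsa_circ_0002658, which were 0.59 and -0.59 over all libraries. The cause was not tested. Without control replicates 1 and 3 these were ANKRD28 (-0.58), hsa_circ_0064516 (-0.70), hsa_circ_0023224 (-0.23), hsa_circ_0002038 (0.15) and novel_circ_0003163 (-0.15). By limma they were hsa_circ_0007660 (-0.061) and novel_circ_0003172 (0.13), novel_circ_0003172 also with the replicate block (0.037). With 1 library left out, ranges that span 0 were -0.098 to 0.033 for PPP6R3, -0.24 to 0.43 for ANKRD28, -0.12 to 0.78 for PPP4R3A, -0.046 to 0.45 for hsa_circ_0023224, -0.28 to 0.50 for hsa_circ_0007660 and -0.42 to 0.027 for hsa_circ_0002038. They were -0.41 to 0.31 for novel_circ_0003172, -0.0028 to 0.45 for hsa_circ_0001968, -0.73 to 0.064 for hsa_circ_0008391, -0.70 to 0.089 for hsa_circ_0002417, -2.30 to 0.0030 for hsa_circ_0002658 and -0.24 to 0.68 for hsa_circ_0064516.

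Replicate numbers did not pair the libraries (correlation of same-numbered deviations over host genes 0.0090, 0.0039 and 0.0839). With the replicate block host calls were 6 and circRNA calls 4.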

Other observations

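Near PPP6R2, within 2000000 bases on chromosome 22, circRNAs were listed for BRD1, a chromatin reader gene, and at the CHKB locus. They were looked at after the PPP6R2 values were known. Of 4 BRD1 circRNAs, novel_circ_0022128 (49797805 to 49804360) had 5, 5 and 10 reads with cadmium, against 0, 4 and 4 in controls (1.48 on the log2 scale, SE 0.92, edgeR adjusted p = 0.702). The BRD1 circRNA novel_circ_0022127 had 6, 6 and 10 reads with cadmium, against 15, 0 and 11 in controls. A circRNA at the CHKB locus, novel_circ_0022146 (50581879 to 50582248), had 2, 3 and 4 reads with cadmium, against 0, 0 and 0 in controls. The BRD1 circRNA hsa_circ_0007709 had 3, 4 and 3 reads with cadmium, against 2, 2 and 2 in controls. The remaining BRD1 circRNA, hsa_circ_0063870, had 5, 0 and 3 reads with cadmium, against 7, 5 and 3 in controls. The groups overlapped for hsa_circ_0063870 and novel_circ_0022127. They lay apart with higher values under cadmium for novel_circ_0022128, hsa_circ_0007709 and novel_circ_0022146. Among all tested circRNAs 7.52% lay apart in this way, but of these 3 only novel_circ_0022128 had enough reads to be tested. The circRNAs novel_circ_0022128, novel_circ_0022127 and novel_circ_0022146 each lack reads in a control library, so they are listed solely through their cadmium reads. In the same way hsa_circ_0063870 is listed solely through its control reads. This entry rule by itself favours higher cadmium values for novel_circ_0022128 and novel_circ_0022146, so the share of 7.52% is no fair background for them.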
